A study of Arabidopsis thaliana with 6 samples.

Results

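WUSCHEL (WUS) is a homeodomain transcription factor that keeps the stem cells of the shoot apex undifferentiated. This account concerns the places where tagged WUS was enriched on chromatin whose H3K27me3 differed between an induced WUS line and the wild type. They are 545 of the 10087 regions at which the tagged WUS protein was enriched. A region was taken when it shared 1 bp or more with a region of gained or lost H3K27me3. The members were thus chosen by the overlap of the RFP-trap list with the 2 H3K27me3 lists, and their overlap, direction and place within the changed chromatin are a description with no test.

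The data came from whole seedlings of Arabidopsis thaliana, 5 days after germination, given 25 µM dexamethasone for 2 h according to the labels. The WUS-GR line carries pUBI10::mCherry-GR-linker-WUS, in which WUS is joined to the red fluorescent protein mCherry and to the steroid-binding part of the glucocorticoid receptor. The receptor part holds the protein in the cytoplasm until dexamethasone is given. The ubiquitin promoter drives the fusion throughout the seedling, so that WUS is present in many cells that do not normally contain it, and by the study's methods the line is a single-insertion homozygous one. Col-0 is the wild type without the transgene and received the same treatment. Both genotypes therefore had dexamethasone, and WUS-GR differed from Col-0 by the transgene as a whole. No WUS-GR sample without dexamethasone was included, so a difference present before induction cannot be told apart from one that followed it. There were 3 kinds of chromatin immunoprecipitation followed by sequencing (ChIP-seq). RFP-trap pulled down the mCherry fusion, and antibodies pulled down H3K27me3 or histone H3 acetylated at lysines 9 and 14 (H3K9/K14ac). Each of the 6 groups is represented by 1 list of windows, made per the labels from libraries of DNA pooled from 9 preparations, so there are no replicates and no p-values. The lists hold positions without scores or read counts, so the depth behind them is unknown.

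H3K27me3 is the trimethylation of lysine 27 on histone H3. It is placed by Polycomb repressive complex 2, whose catalytic subunits in seedlings are CURLY LEAF and SWINGER, and is removed by demethylases such as REF6. In plants the mark covers whole genes, and it is known for keeping floral, leaf polarity and meristem regulators silent outside the cells that need them. H3K9/K14ac is found around the start of active genes. In whole seedlings, a mark that changes in a few cells cannot be told apart from a weaker change in many cells.

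A mark is called gained where its windows come from the list of WUS-GR over Col-0, and lost where they come from the opposite list. Windows were 100 bp long for RFP-trap and 500 bp long for the histone marks, and touching windows of a list were merged. Gained and lost H3K27me3 regions never overlap, but they often touch. Coordinates are those of TAIR10 and are counted from 1. The following stretches show what WUS-GR regions inside changed H3K27me3 look like at developmental and hormone genes. They were chosen because they belong to listed genes, hold at least 1 of the 6 short words described further on, and lie inside the changed chromatin in all or most of their length. The place named is that of the midpoint of the WUS-GR region. Sequences are given on the plus strand, and capitals mark the words or their reverse complements (TAGGGTTT for AAACCCTA and TCTCTCTC for GAGAGAGA).
SEP3, upstream, lost H3K27me3, chr1:8596432-8596527: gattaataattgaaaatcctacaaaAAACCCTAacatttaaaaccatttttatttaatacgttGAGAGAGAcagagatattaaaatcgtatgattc
CKX5, upstream, lost H3K27me3, chr1:28318993-28319169: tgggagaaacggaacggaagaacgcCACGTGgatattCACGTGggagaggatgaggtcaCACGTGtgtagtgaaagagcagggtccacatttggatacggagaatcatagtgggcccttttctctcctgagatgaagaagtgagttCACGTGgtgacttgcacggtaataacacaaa
IAA19, upstream, lost H3K27me3, chr3:5262580-5262698: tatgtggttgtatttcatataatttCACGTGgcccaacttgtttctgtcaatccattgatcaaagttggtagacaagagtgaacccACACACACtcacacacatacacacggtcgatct
AS2, upstream, lost H3K27me3, chr1:24397211-24397268: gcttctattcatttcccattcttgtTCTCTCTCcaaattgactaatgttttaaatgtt
CLE41, intron, lost H3K27me3, chr3:9046365-9046422: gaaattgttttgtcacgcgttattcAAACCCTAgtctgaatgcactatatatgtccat
LFY, intron, gained H3K27me3, chr5:24845476-24845531: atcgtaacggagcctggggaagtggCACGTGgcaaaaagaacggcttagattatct
AFO, coding sequence, gained H3K27me3, chr2:18628608-18628665: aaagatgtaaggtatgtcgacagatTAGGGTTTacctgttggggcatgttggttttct
AFO, upstream, lost H3K27me3, chr2:18632195-18632254: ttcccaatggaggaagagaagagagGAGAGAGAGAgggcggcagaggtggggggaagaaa
LAX1, coding sequence, lost H3K27me3, chr5:101001-101048: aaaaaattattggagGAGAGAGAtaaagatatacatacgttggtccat
WOX1, downstream, at a border of gained and lost H3K27me3, chr3:6159986-6160043: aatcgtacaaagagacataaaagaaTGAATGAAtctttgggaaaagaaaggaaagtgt

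The CKX5 stretch holds 4 copies of CACGTG, the AFO upstream stretch holds 2 overlapping copies of GAGAGAGA, and the WOX1 stretch has 43 bases in a lost region and 15 bases in the gained region beside it.

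WUS-GR regions met loss of H3K27me3 more often than gain. Of the 545 members, 348 or 63.9% (95% Wilson interval 59.7 to 67.8) shared bases with lost H3K27me3 only, 149 or 27.3% (23.8 to 31.2) with gained H3K27me3 only, and 48 or 8.81% (6.71 to 11.5) with both. The intervals cover counting error only. Among all 10087 WUS-GR regions, the 545 members are 5.4%, while 3.93% (3.56 to 4.32) met a lost region and 1.95% (1.7 to 2.24) a gained one. The lists themselves hold more loss than gain. There were 6917 lost regions that covered 5.34% of the 5 nuclear chromosomes and 4379 gained regions that covered 2.53%. Seen from the changed regions, 376 of the lost regions or 5.44% (4.93 to 6) and 189 of the gained regions or 4.32% (3.75 to 4.96) held a WUS-GR region. Changed H3K27me3 covered 3.44% of the bases in WUS-GR regions, beside 7.87% of the nuclear genome. The RFP-trap list of Col-0, which has no tagged protein, comes from the opposite comparison, Col-0 over WUS-GR. It is therefore no measure of background overlap. Of its 580 regions, 75 or 12.9% (10.4 to 15.9) met changed H3K27me3, with 23 on lost and 52 on gained regions.

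Most members lay in changed chromatin over their whole length. They shared a median of 200 bp with changed regions (quartiles 200 and 300), and 360 of them or 66.1% (62 to 69.9) were covered over their whole length. The plot of shared bases shows the spread: 135 members shared 100 bp, 168 shared 200 bp, 113 shared 300 bp, and 13 shared 700 bp or more. At the threshold of the choice, the 135 members with 100 bp of shared sequence had a median width of 200 bp. The regions just outside were 93 WUS-GR regions that touched a changed region without sharing a base, with a median width of 300 bp, and 98 more lay 100 bp away. A single changed region was met by 496 members, 2 were met by 47, and 3 or more by 2.

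**Figure D1:**
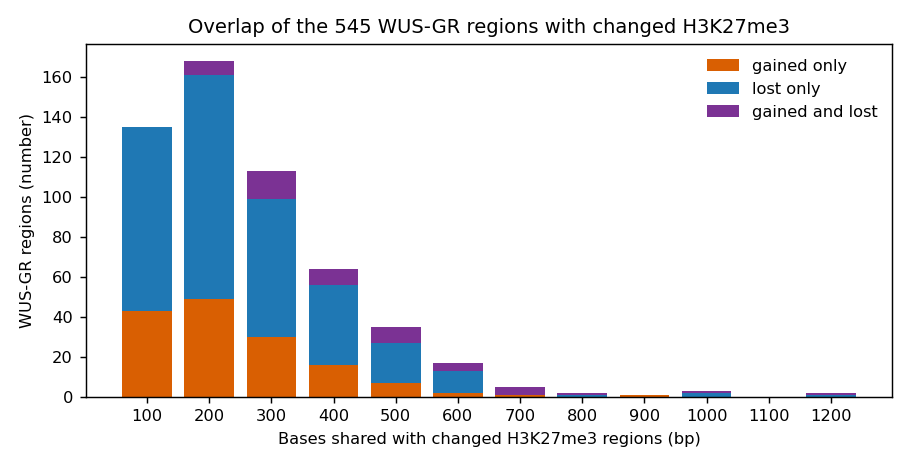
Number of WUS-GR regions (y axis) by the bases they share with changed H3K27me3 regions (x axis, bp), stacked by gained only (orange), lost only (blue) and both (purple). The 100, 200 and 300 bp classes hold 135, 168 and 113 of the 545 regions, and lost-only regions are the largest part of each.

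Gain and loss lay side by side around the majority of members. Changed regions that touch each other form stretches, of which 5737 were found, and 336 members or 61.7% (57.5 to 65.6) lay in a stretch that held both directions. By direction this was 114 of the 149 gained-only members, 174 of the 348 lost-only members and all 48 of the others. The study's methods discard gained and lost regions less than 73 bp apart, and on the grid of 500 bp windows that removes every pair that touches. Only 209 members, 35 on gained and 174 on lost H3K27me3, kept a region under that rule, which raised the share with loss only to 83.3%. Stretches with a member were longer than those without, with medians of 2000 bp and 1000 bp, and more of them were mixed: 276 of 472 or 58.5% (54 to 62.8), beside 2220 of 5265 or 42.2% (40.8 to 43.5). A longer stretch has more bases with which to meet a WUS-GR region, so the rule itself favours long stretches. Within classes of length the shares lay close together. Among stretches of 1500 to 2000 bp, 65.3% (56.3 to 73.2) of those with a member and 67.3% (64.6 to 69.9) of those without were mixed, and from 2500 to 4000 bp the shares were 85.2% (77.3 to 90.7) and 90.1% (87.9 to 91.9). Among those of 500 to 1000 bp they were 17.5% (12.4 to 24) and 13.6% (12.4 to 14.9).

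Genes on lists of flower, leaf and meristem development or of auxin and cytokinin stood at 32 of the members. In all, 14 lists, Polycomb genes included, with 297 genes found in the annotation, were looked up. A WUS-GR region was assigned to 144 of these genes and a member to 23, or 16% of those bound, beside 434 of 7260 or 5.98% of all bound genes. The lists were chosen with earlier results of these data known. Many of their genes are also of the kinds that H3K27me3 is known to cover. The 2 shares are therefore a description and no test of the lists. Of the 32 members at the 23 genes, 21 were on lost H3K27me3, 9 on gained and 2 on both, and 22 lay in a stretch with both directions. They were 200 to 1200 bp wide, 19 lay upstream of the gene and 19 were covered over their whole length. The map of the 23 genes shows the regions at their distances from the transcription start site (TSS).

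**Figure D2:**
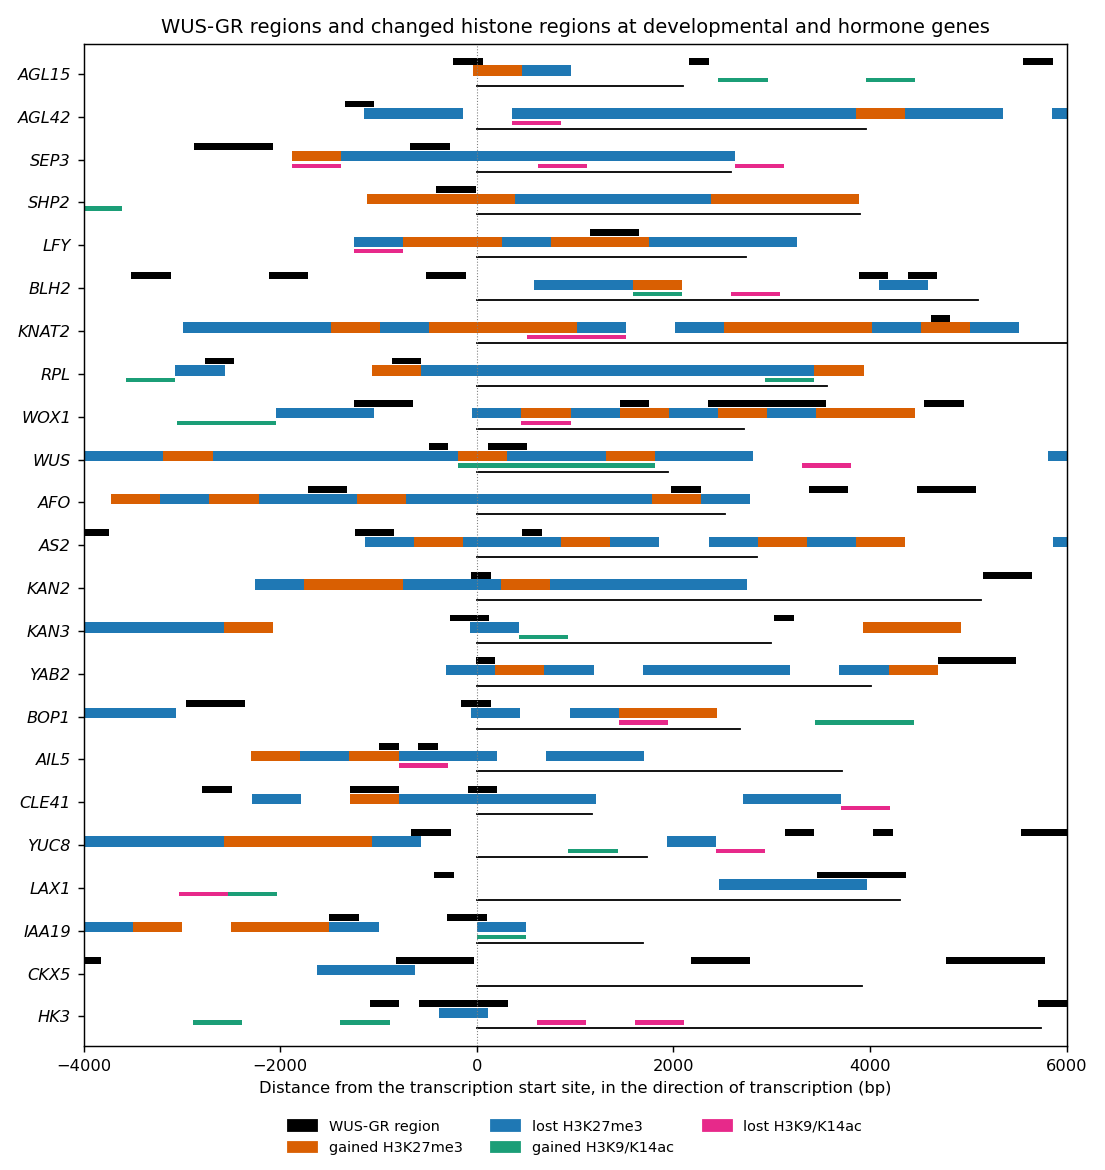
WUS-GR regions (black bars), gained (orange) and lost (blue) H3K27me3 and gained (green) and lost (pink) H3K9/K14ac around the TSS of the 23 listed genes with a member, along the distance from the TSS in bp (x axis). Thin lines are gene bodies. At WOX1 the H3K27me3 direction changes 7 times within 4500 bp, while the regions at HK3, CKX5 and LAX1 lie on loss alone.

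Of the leaf polarity genes, 5 of the 12 that were bound had a member, and each of the 5 had one on lost H3K27me3. YAB2, a member of the YABBY family that marks the lower leaf face, had a region of 200 bp across its TSS (midpoint +88 bp), wholly on lost H3K27me3. A gained region began next to it at +188 bp, in a stretch of 1500 bp with 2 changes of direction. KAN2, which also promotes lower leaf identity, had a WUS-GR region of 200 bp wholly on lost H3K27me3 in its 5' UTR at +44 bp. The stretch around it was 5000 bp long with 4 changes of direction. At KAN3, its relative, 200 of 400 bp at -74 bp were on lost H3K27me3 with no gained region touching it. AS2, which promotes upper leaf identity, had 2 members on lost H3K27me3, with 300 of 400 bp shared at -1042 bp and 200 of 200 bp in the 5' UTR at +558 bp. Both lay in 1 stretch of 3000 bp in which the direction changed 4 times. AFO (also called FIL), another YABBY gene, had a member of 400 bp at -1522 bp on lost H3K27me3 and 1 of 300 bp in its coding sequence at +2128 bp on gained H3K27me3. A single stretch of 6500 bp with 7 changes of direction held both. BOP1, which acts at leaf bases and organ boundaries, was the only boundary gene of the 5 bound with a member, and 200 of its 300 bp at -7 bp were on lost H3K27me3.

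The WUS-related homeobox gene WOX1, which drives the outgrowth of the leaf blade, had a stretch in which the direction changed 7 times, as did AFO, with 8 changes at WUS. Its gene body lies on chromosome 3 from 6160733 to 6163453 on the minus strand. A WUS-GR region of 1200 bp across the gene end (6159901 to 6161100) shared 600 bp with gained and 600 bp with lost H3K27me3, and a region of 300 bp in an intron lay on gained H3K27me3 alone. Another region of 600 bp at -948 bp shared 200 bp with a separate lost region. The stretch over the gene was 4500 bp long and held 4 gained and 4 lost regions in turn. At WUS itself, on chromosome 2 from 7808871 to 7810811, a WUS-GR region of 400 bp in coding sequence was split between 200 bp of gained and 200 bp of lost H3K27me3 and lay on gained acetylation over all 400 bp. A second region of 200 bp at -390 bp was on lost H3K27me3, and both lay in 1 stretch of 8500 bp with 4 gained and 5 lost regions. The transgene also holds the coding sequence of WUS, so reads from it and from the native gene cannot be told apart in the first of these regions. Of the 7 bound WOX genes, WOX1 and WUS were the ones with a member.

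Among floral regulators the direction differed from gene to gene. SEP3, a MADS box factor needed for petals, stamens and carpels, had a region of 400 bp at -478 bp within a lost region of 4000 bp that ran over the whole gene body. SHP2, a MADS box factor of carpel and fruit, had a region of 400 bp at -213 bp wholly on gained H3K27me3. AGL15, which acts in embryos and delays flowering, had 100 of 300 bp at -93 bp on gained H3K27me3, and AGL42, which promotes flowering, had 100 of 300 bp at -1195 bp on lost H3K27me3. These were 4 of the 13 bound genes of the MADS list. LFY, which turns shoot meristems into flowers, had 500 bp in an intron at +1403 bp on gained H3K27me3 and was 1 of 13 bound genes in the list of other flowering regulators. Changed H3K27me3 extended from -1247 to +3252 bp around the LFY TSS with 4 changes of direction.

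The homeobox genes of the KNOX and BELL classes, which act in the shoot meristem and in internodes, gave 3 genes of 14 bound. KNAT2, a KNOX gene, had 200 bp in an intron at +4715 bp on gained H3K27me3. RPL, a BELL gene, had 300 bp at -716 bp on gained H3K27me3, and the neighbouring lost region ran from -566 to +3433 bp, past the TSS and to near the gene end. BLH2, a BELL gene that shapes leaf margins, had 2 members near its 3' end, in an intron and in coding sequence, that shared 100 and 200 bp with 1 lost region of 500 bp. AIL5, an AP2 factor that acts in the shoot and root meristems, had 2 regions of 200 bp each, at -498 bp on lost H3K27me3 with 200 bp of lost acetylation, and at -898 bp on gained H3K27me3. CLE41, whose peptide keeps vascular stem cells dividing, had 500 bp at -1042 bp that matched a gained region base for base, and 300 bp at +58 bp in lost H3K27me3.

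On the 5 lists of auxin and cytokinin genes, every member lay on lost H3K27me3 only, beside 63.9% of all members. These members were few, at YUC8, LAX1, IAA19, HK3 and CKX5 alone. They are too few to show a direction particular to hormone genes. The SAUR genes with gained H3K27me3 named below were not on these lists. YUC8, an enzyme of auxin synthesis, had 100 of 400 bp at -468 bp on lost H3K27me3, in a stretch of 6000 bp with 5 changes of direction. LAX1, an auxin influx carrier, had 500 of 900 bp in its last part at +3915 bp on lost H3K27me3. IAA19, an auxin-induced repressor of auxin response, had 300 of 300 bp at -1350 bp and 100 of 400 bp at -100 bp on lost H3K27me3. The first lay in a stretch of 1500 bp with a gained region beside the lost one, and the second also had 100 bp of gained acetylation. The cytokinin receptor gene HK3 (AHK3) had 500 of 900 bp at -138 bp, and CKX5, an enzyme that breaks down cytokinin, 200 of 800 bp at -426 bp, both on lost H3K27me3 with no gained region beside it. Of the bound genes on each hormone list, those with a member were 1 of 6 for auxin synthesis, 1 of 13 for auxin transport, 1 of 20 for Aux/IAA and TIR1/AFB, 0 of 10 for ARF and 2 of 15 for cytokinin. None of the 8 bound genes for Polycomb proteins and H3K27 demethylases had a member.

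Other genes came to the fore by the extent of the overlap. On gained H3K27me3 only, the most shared bases were 900 bp of a WUS-GR region of 1600 bp outside every gene window on chromosome 4 (16688801 to 16690400). It was followed by 700 bp at -1435 bp from AT1G79150, annotated as a binding protein, 600 bp at -64 bp from the homeodomain-like gene AT1G14600, 600 bp at -373 bp from the acyltransferase gene AT5G07080, and 500 bp at -883 bp from BBX16, a B-box zinc finger gene. On lost H3K27me3 only, the most was 1200 bp of a region that spans the RNA gene AT1G09585, 1000 bp of a region of 1900 bp outside every gene window on chromosome 4 (17747101 to 17749000), 1000 bp of a region at -89 bp from the RNA gene AT5G09825, 800 bp at -108 bp from TCP15, which restrains cell growth in leaves, and 600 bp of a region that spans the RNA gene AT2G09320. The TCP15 region was covered from end to end. The last places were tied, with 7 gained-only members at 500 bp and 11 lost-only members at 600 bp, and BBX16 and AT2G09320 were taken for the width of their regions.

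With both directions in 1 region, WOX1 came first with 1200 bp. AT4G34760, of the SAUR family of auxin-induced genes, followed with 500 bp gained and 500 bp lost at -226 bp. LRP1, a factor first found in lateral root primordia, had 600 bp gained and 200 bp lost at -325 bp. AT3G22160, with a VQ motif, had 200 bp gained and 500 bp lost around its 5' UTR together with 600 bp of lost acetylation, and the uncharacterized gene AT1G02067 had 200 bp gained and 500 bp lost at -1185 bp, in a tie of 4 members at 700 bp. In all, 55 genes had gained and lost H3K27me3 in their members, 108 had gained only and 271 lost only.

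Among the 5 longest members, beside the 2 regions outside gene windows and that at AT2G09320 (1700 bp), were a region of 1800 bp at -412 bp from the B-box gene BBX14, with 300 bp on gained H3K27me3 and 500 bp on lost acetylation, and a region of 1300 bp in WRKY57, which acts in drought responses, with 400 bp on gained H3K27me3 and 500 bp on lost acetylation, tied with 1 region outside every gene window. Only 3 genes had 3 members each. Besides WOX1 these were ERF12, an AP2/ERF factor, with regions of 200 bp on lost, 400 bp on gained and 600 bp on both directions from the 5' UTR to past its end, and HAI1, a protein phosphatase of abscisic acid signalling, with 2 regions on lost H3K27me3 in coding sequence and 1 of 400 bp on gained H3K27me3 in the 5' UTR. Of the 44 genes with 2 members, those with the most member bases were IDD5, an indeterminate-domain zinc finger gene (100 and 500 bp shared, both lost), and AT1G61740, of a sulfite exporter family (500 bp lost in the 5' UTR, 400 bp gained and 300 bp lost at -635 bp).

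The longest gained region with a member, 5000 bp on chromosome 3, held a member of 100 bp in the non-coding RNA gene AT3G06355, where gained acetylation covered the same 100 bp. Then came 3 of 3000 bp each, at AT1G31040, a PLATZ-type factor gene with members of 300 and 200 bp, at the uncharacterized gene AT1G40104 and at AT2G01008, whose members were 100 bp each, and 1 of 4 regions tied at 2500 bp at JMT, which makes methyl jasmonate. AT2G01008 lies at the very tip of chromosome 2, from base 1025. The longest lost regions with a member were 5500 bp at the Dof-type zinc finger gene AT4G24060, with members of 300 bp in the 5' UTR and 100 bp past the end, 5000 bp at GL2, which sets epidermal cell fate and had 300 bp at -1105 bp, 4500 bp at AT1G21973, whose product the annotation does not name, 4500 bp at the mitochondrial carrier gene APC3, and 4000 bp at SEP3, 1 of 2 of that length.

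Members had the median width of WUS-GR regions in general, but fewer of them were wide. The median was 300 bp in members (quartiles 200 and 400, longest 1900) and 300 bp in the other 9542 WUS-GR regions (quartiles 200 and 500, longest 3600). Members on both directions were wider, with a median of 400 bp, as a region must span a border to meet both. Narrow WUS-GR regions were in changed H3K27me3 more often than wide ones, although a wide region has more bases with which to meet a change. The share was 7.14% (5.65 to 8.99) of 924 regions of 100 bp, 5.55% (4.7 to 6.54) of those of 300 bp, and 3.14% (2.02 to 4.84) of 606 regions of 1000 bp or more. By midpoint, which does not favour width, the shares were 7.14%, 4.76% and 1.32%. The plot of the share by width shows the decline in every class.

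**Figure D3:**
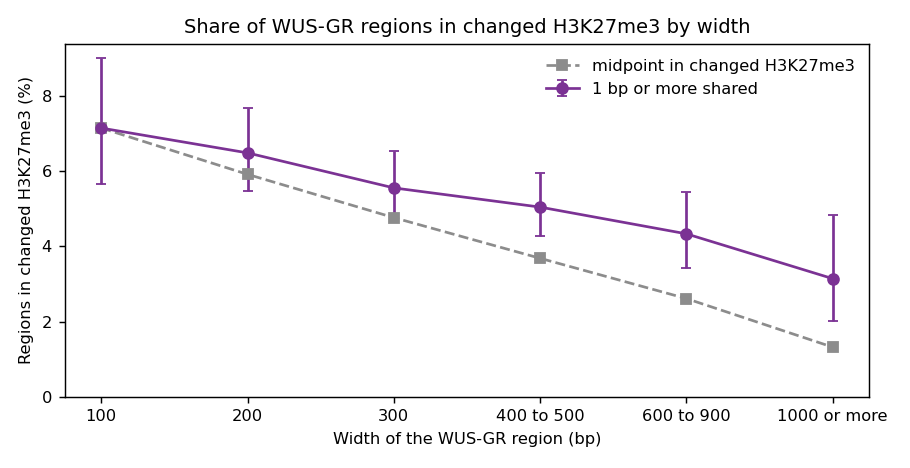
Percent of WUS-GR regions in changed H3K27me3 (y axis) by the width of the region in bp (x axis), counted by 1 bp of shared sequence (purple, with 95% Wilson intervals) and by midpoint (grey squares). The share is 7.14% at 100 bp and 3.14% at 1000 bp or more.

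Members lay upstream of genes and in 5' UTRs less often, and in coding sequence, in introns or away from genes more often, than the other WUS-GR regions. By midpoint, 261 members or 47.9% (43.7 to 52.1) were upstream, at most 2500 bp from a TSS, against 54.1% (53.1 to 55.1) of the others. For 5' UTRs the shares were 8.81% (6.71 to 11.5) and 16% (15.3 to 16.8). Coding sequence held 9.54% (7.35 to 12.3) of members and 5.16% (4.73 to 5.62) of the others, introns 7.89% (5.91 to 10.5) and 4.44% (4.05 to 4.88), and no gene window 11.2% (8.81 to 14.1) and 6.09% (5.63 to 6.59). For these 5 places the intervals of the groups did not overlap. For 3' UTRs, sequence past the gene end and non-coding genes they did. Upstream members of protein-coding genes had their midpoint at a median of -762 bp, and the other upstream regions at -547 bp. Gained-only and lost-only members differed in 1 upstream class: 16.1% (11.1 to 22.8) of gained-only members and 6.9% (4.68 to 10.1) of lost-only members lay 1000 to 500 bp before a TSS. This class was singled out after the values were seen. Members made up 6.41% (5.32 to 7.7) of the WUS-GR regions of chromosome 2 and 4.45% (3.69 to 5.36) of those of chromosome 5, the highest and lowest of the 5 chromosomes.

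**Figure D4:**
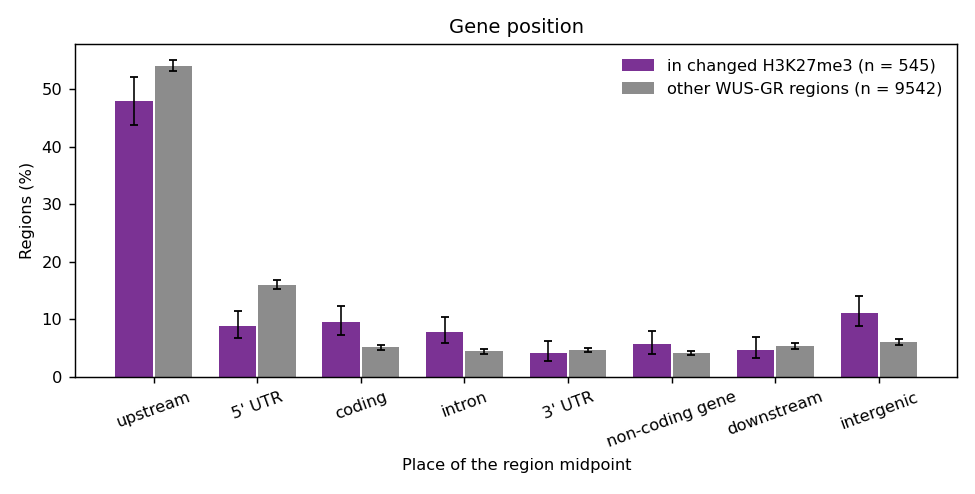
Percent of regions (y axis) by the place of the midpoint (x axis) for the 545 WUS-GR regions in changed H3K27me3 (purple) and the 9542 others (grey), with 95% Wilson intervals. Upstream and 5' UTR bars are lower, and coding, intron and intergenic bars higher, in changed H3K27me3.

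Genes for transcription factors were about 2 times as frequent among member genes as among other bound genes. The 484 members with a gene belonged to 434 genes, of which 365 were protein-coding, 45 long non-coding RNA genes and 5 microRNA genes. A word for a transcription factor or DNA-binding domain stood in the product name of 78 member genes or 18% (14.6 to 21.9), against 9.36% (8.69 to 10.1) of the 6826 genes with other WUS-GR regions only and 5.51% of all 37899 annotated genes. The word list was made blind to letter case after a first look at the member genes, and in its original letter case the shares were 15.4% (12.3 to 19.1) of member genes and 8.45% of the others. By direction the share was 20% (13.9 to 27.9) at gained-only, 17.6% (13.6 to 22.4) at lost-only and 22.2% (12.5 to 36.3) at both-direction members, with overlapping intervals. It was 19.1% (14.8 to 24.2) in stretches with both directions and 16.8% (11.9 to 23) in those with 1. Kinase and receptor genes were less frequent than among other bound genes, with 3% (1.76 to 5.06) of member genes against 7.15% (6.56 to 7.78). The share of all annotated genes was 4.04%, which the interval of the member genes includes. Cytochrome P450 genes were 2.07% (1.09 to 3.89) of member genes against 0.645% (0.481 to 0.864). Transporters, cell wall genes, oxidoreductases, the ubiquitin pathway and genes of unknown function had overlapping intervals. The plot of function words sets the classes side by side.

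**Figure D5:**
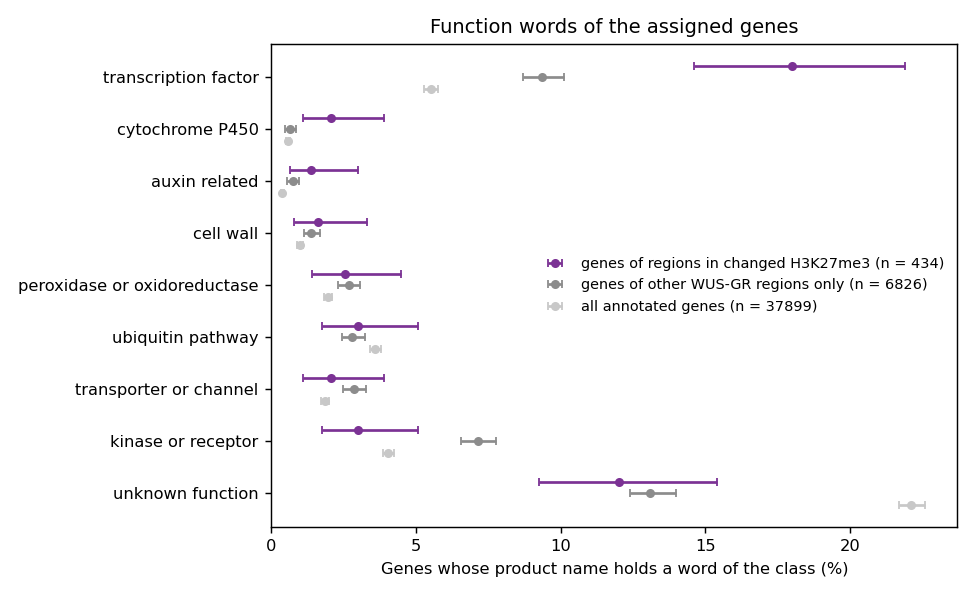
Percent of genes whose product name holds a word of each class (x axis) for the 434 genes of regions in changed H3K27me3 (purple), the 6826 genes of other WUS-GR regions only (grey) and all 37899 annotated genes (light grey), with 95% Wilson intervals. Transcription factors reach 18% against 9.36% of other bound genes. Kinases and receptors have 3% against 7.15%, with 4.04% of all annotated genes.

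The factor genes came from several families, which were sorted by words in product names after the values were seen. These words missed some genes. VND1 and VND7 were not counted under NAC, nor ERF15 under AP2/ERF, and none of them had a transcription factor word. The counts and intervals below are thus those of name classes and not of complete families. The class with the most member genes was that of product names with homeodomain or homeodomain-like. It had 16 of 100 bound genes or 16% (10.1 to 24.4), beside 5.98% of all bound genes. These names are not limited to 1 family, and FLP was counted both here and under MYB. The class includes HAT3, ANL2 and GL2 of the HD-ZIP classes, on lost H3K27me3. C2H2 and indeterminate-domain zinc finger genes gave 8 of 31 or 25.8% (13.7 to 43.2), and AP2/ERF genes 9 of 53 or 17% (9.2 to 29.2). Their intervals lie above 5.98%, as do those of the MADS box (4 of 17), Dof (4 of 15), LBD (3 of 13), TCP (3 of 17) and YABBY genes (2 of 3). Intervals that include 5.98% belong to NAC with 4 of 37, WRKY with 4 of 36, MYB with 6 of 66, bHLH with 2 of 65, bZIP with 2 of 28, B-box with 2 of 18, GATA with 2 of 17 and B3 with 1 of 15. The 5 microRNA genes were MIR157a, MIR163 and MIR858a on lost H3K27me3, MIR157c on gained and MIR160a on both. MiR157 represses SPL genes, which promote the adult phase, and miR160 targets ARF genes. The MIR157a region was 500 bp wide, lay at -2352 bp and was on lost H3K27me3 over its whole length, and the MIR157c region was 200 bp wide, lay at -585 bp and was on gained H3K27me3 over its whole length.

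Acetylation, which the choice of members did not use, changed at members about as often as at WUS-GR regions in general. Lost H3K9/K14ac met 40 members or 7.34% (5.44 to 9.84), beside 8.25% of all WUS-GR regions and 8.3% (7.76 to 8.87) of the others. Gained H3K9/K14ac met 34 members or 6.24% (4.5 to 8.59), beside 6.83% of all and 6.86% (6.37 to 7.39) of the others. The 2 directions of H3K27me3 did not separate in this respect. Lost acetylation met 7.38% (4.17 to 12.7) of gained-only and 7.47% (5.15 to 10.7) of lost-only members, and gained acetylation 4.03% (1.86 to 8.51) and 6.61% (4.44 to 9.72). Of the 48 both-direction members, 3 met lost and 5 gained acetylation. In the 209 members that kept a region under the 73 bp rule, the shares were 11% (7.45 to 16) for lost and 9.09% (5.9 to 13.8) for gained acetylation, which put them above the other WUS-GR regions with overlapping intervals. Over whole genes the picture differed. Lost acetylation was assigned to 120 of the 434 member genes or 27.6% (23.7 to 32), against 36.6% (35.5 to 37.7) of the genes with other WUS-GR regions only. For gained acetylation the shares were 23% (19.3 to 27.2) and 35.6% (34.5 to 36.7). Of all annotated genes, 20.7% (20.3 to 21.2) had lost and 22% (21.6 to 22.4) gained acetylation, so member genes were above that share for lost acetylation and had an interval that includes it for gained acetylation.

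Members of 10 of the 55 genes with both H3K27me3 directions met an acetylation change, or 18.2% (10.2 to 30.3), beside 57 of the 379 other member genes or 15% (11.8 to 19), with overlapping intervals. The 5 with the most member bases were AT3G22160 and WUS, given above, AT4G34800, a second SAUR gene, AT1G14580, a C2H2 zinc finger gene, and AT2G46160, a RING/U-box gene. AT4G34800 had a region of 600 bp at -239 bp with 400 bp gained and 200 bp lost H3K27me3, all of it on lost acetylation. AT1G14580 had 100 bp on gained H3K27me3 and lost acetylation and 400 bp on lost H3K27me3, both in coding sequence. AT2G46160 had 500 bp around its 5' UTR with 200 bp gained and 300 bp lost H3K27me3, and 200 bp on gained acetylation.

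Of 6 short words, AAACCCTA was the one whose intervals in members and in the other WUS-GR regions did not overlap. Words were counted on both strands in the 300 bp around each midpoint, whatever the width of the region. For narrower regions this window takes in flanking sequence. In wider regions, words outside the window were not counted, as for the CKX5, LAX1 and WOX1 stretches printed above. AAACCCTA, the telo-box, and GAGAGAGA, a GA repeat, are elements that in Arabidopsis are known to bring Polycomb complexes to genes. AAACCCTA stood in 25 members or 4.59% (3.13 to 6.68), against 2.58% (2.28 to 2.92) of the others and 6.18% of all promoters of 300 bp (250 bp before to 50 bp after the TSS). GAGAGAGA stood in 12.3% (9.8 to 15.3) of members and 12.3% (11.6 to 12.9) of the others, with 7.56% of promoters. In both-direction members it stood in 12 of 48 or 25% (14.9 to 38.8). CACGTG, the G-box that bHLH and bZIP factors bind, stood in 20.6% (17.4 to 24.1) of members and 18.5% (17.7 to 19.2) of the others, with 6.46% of promoters. TTAATGG and TGAATGAA, known from WUS binding to DNA, stood in 4.95% (3.43 to 7.11) and 5.14% (3.58 to 7.33) of members, against 6.9% (6.4 to 7.42) and 3.92% (3.55 to 4.33) of the others, with 7.25% and 2.74% of promoters. ACACACAC stood in 4.22% (2.83 to 6.25) of members and 3.7% (3.34 to 4.1) of the others, with 2.54% of promoters. Base composition was alike, with a median of 35.3% G and C in members and 34.7% in the others. A word is a match of letters and does not show that a factor bound there.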

How the data were processed

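The members and gene lists were chosen with earlier results of these data known. Per the labels and the study's methods, the authors used BWA to map reads to TAIR10 and hiddenDomains to compare the genotypes in windows of 100 bp (RFP-trap) or 500 bp (histone marks). The deposited lists hold other values than signal: chromosome, start and end of each window above the authors' posterior threshold. The methods give a lower dexamethasone concentration than the labels, which were followed.

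Touching windows were merged per list, without the authors' 73 bp rule. Each region was assigned by its midpoint to a gene that holds it, else to the nearest TSS within 2500 bp downstream, else to a gene end within 1000 bp, in the RefSeq annotation of TAIR10.1, whose nuclear chromosomes match TAIR10. Of 309 list symbols, 11 matched no gene or several. Function and family words were searched in product names. Genes were named by rule: all listed genes with a member, and the top 5 by shared bases per direction, width, number of members, length of the changed region, and joint acetylation change, with ties by width and position. The 73 bp rule, other overlap, gene and word settings were tried as alternatives. Scripts (Python 3.11.15, numpy 2.4.6, matplotlib 3.10.9) were tested on simulated lists.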

Additional observations from a re-analysis of the deposited data

How the results depend on the processing

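No paired analysis was possible because the deposited lists carry no replicates. For 16 results, 56 alternatives were run, of which 40 left a share within its interval or a count within 1.5 times. The 73 bp rule gave 209 members with 83.3% on loss only, and H3K27me3 regions of at least 1000 bp gave 309 with 73.8%, both by leaving fewer regions to meet. Members kept after the 73 bp rule met lost acetylation in 11% and gained acetylation in 9.09%, above the other regions (8.19% and 6.78%). Applying that rule to acetylation also put members above the others, with 5.5% against 4.95% for loss and 4.59% against 3.74% for gain. Members on gained H3K27me3 only met gained acetylation in 4.03%. With protein-coding genes only, 16.9% of members lay in no gene window. With gene windows of 1000 bp upstream, 30.5% were upstream and 24.4% in no window. Counting every gene window overlapped, 13.1% of member genes had a transcription factor word, against 7.42%. In the central 200 bp, fewer bases were searched and the shares were 16% for CACGTG, 8.99% for GAGAGAGA, 2.94% for AAACCCTA, 2.57% for TTAATGG and 2.57% for TGAATGAA, and GAGAGAGA (9.14%) and TGAATGAA (2.88%) were then more frequent in the others. In the whole region CACGTG (21.5% against 22.6%), GAGAGAGA (15% against 15.6%) and ACACACAC (5.14% against 5.24%) were less frequent in members, as was ACACACAC with members by midpoint (3.63% against 3.73%). AAACCCTA stayed more frequent in members in all 4 of its alternatives, with 2.94% (1.82 to 4.72) against 1.65% in the central 200 bp. Intervals of the others were not computed for the alternatives, so only the direction was compared there. The alternatives that matched words by letter case, used members of 1 direction, used midpoints for functions or left out the regions at WUS were added after seeing the data. The first of these is the original word list, which gave 15.4% of member genes against 8.45%. Depth is unknown, and how far a window lay above the authors' threshold was not tested.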
